A study of Bos taurus with 48 samples.

Results

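LEP, the gene of the hormone leptin, was followed through subcutaneous adipose tissue of 24 Norwegian Red heifers that were each sampled at 12 months of age and in month 7 of gestation. It was selected by its identifier (ENSBTAG00000014911), with earlier results of these data known, and it is 1 of 24616 genes with a count in each of the 48 samples. The samples are biopsies of subcutaneous fat, from which polyA RNA was sequenced. Each heifer was reared on 1 of 4 diets with 6 heifers each, LPHE, LPLE, HPHE or HPLE, in which LP and HP stand for a low or a high protein level and LE and HE for a low or a high energy level of the feed. LE heifers were given a restricted ration of silage mixed with straw, whereas HE heifers had free access to silage. Every diet held 3 heifers of the high milk-yield pedigree (HMY) and 3 of the low clinical mastitis pedigree (LCM). Experimental feeding ended once pregnancy was established, and all heifers then had free access to the same low-energy feed, so none of them was on its rearing diet at the second sampling. Heifers were bred at a target body weight, which LE heifers reached at a higher age. Age, pregnancy and the change of feed therefore cannot be told apart in any comparison of the sampling times, and in gestation HE and LE heifers also differed in age.

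Leptin is secreted mainly by adipocytes, and its transcript level in fat is known to follow the lipid filling of the cells and the energy intake of the animal. The hormone acts on the leptin receptor in the hypothalamus, where it lowers appetite, and it is one of the signals that link body reserves to puberty and reproduction. Insulin is known to raise LEP transcription, and fasting to lower it.

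Between 14815595 and 61027456 reads per sample were counted on genes, and LEP itself received between 1566 and 47566 reads, so counting error was small beside the spread between heifers. Levels are given as CPM, the usual count of a gene scaled by the library total, after TMM normalization over all 48 samples. Of the adipocyte markers only CIDEC, a protein of the lipid droplet, could be matched to an identifier, and it lay between 810 and 2798 CPM in the 48 biopsies. The summed CPM of 7 skeletal muscle genes ranged from 10.7 to 2901, with the highest value in HPHE heifer 15 at 12 months and 902 in the next biopsy. Normalization factors were between 0.865 and 1.13, with a mean of 0.942 in HE and 0.998 in LE heifers at 12 months. In bulk tissue, fewer adipocytes and less LEP RNA per adipocyte cannot be told apart.

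The mean of LEP was lower in both LE groups at 12 months than in any other group of diet and sampling time. In LPLE heifers it ranged from 78.4 to 283 CPM with a median of 195 and a mean of 175 ± 79.6 (SD, n = 6). The HPLE heifers covered 84.6 to 601 CPM around a median of 222, with a mean of 274 ± 199. In LPHE heifers the lowest value was 319.5, the median 520.1 and the highest 758 CPM, which gave a mean of 525.7 ± 143. No LPLE heifer reached the lowest LPHE heifer, whereas the HPLE group reached into the range of the HE groups. HPHE heifers had between 299.6 and 826 CPM, a median of 481 and a mean of 536 ± 219.

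In month 7 of gestation the 4 groups overlapped. LPLE heifers then had 405 to 691 CPM (median 449, mean 492 ± 107), and every one of them was above the highest LPLE value of 12 months. HPLE heifers ranged from 238 to 1166 CPM around a median of 498, with a mean of 594 ± 329 that was the highest of the 8 groups. LPHE heifers, with 321 to 704 CPM, a median of 478 and a mean of 514 ± 152, lay in the same range as at 12 months. The HPHE group spread from 108 to 616 CPM with a median of 398 and a mean of 387 ± 167.99, and its lowest value, of heifer 2, stood apart from the other 5.

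**Figure D1:**
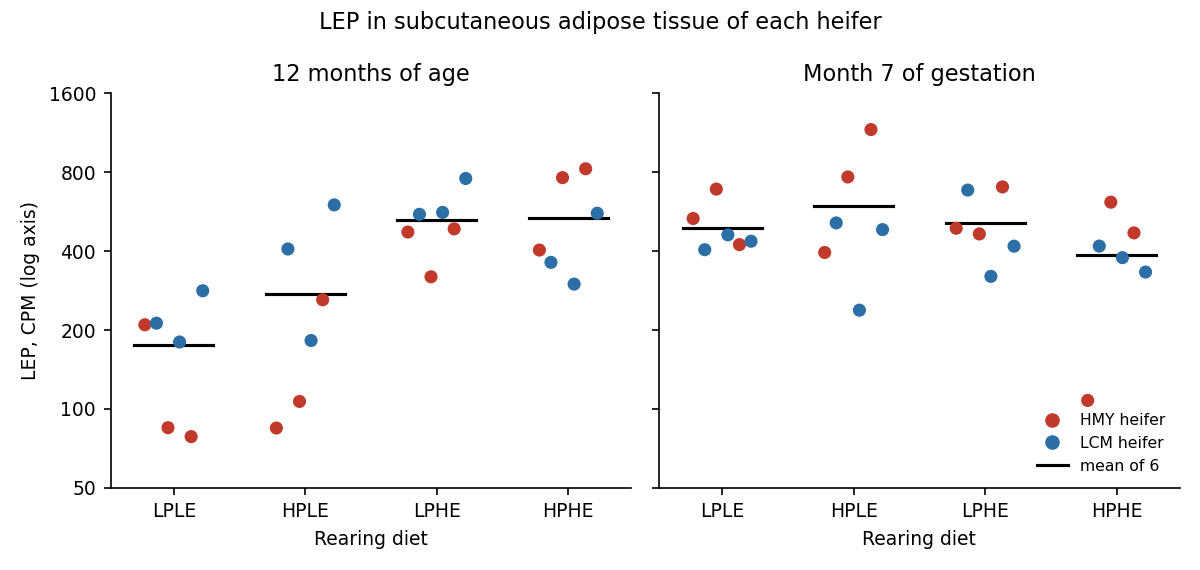
LEP in CPM (log axis) in each of 24 heifers at 12 months of age (left) and in month 7 of gestation (right) by rearing diet. Points are heifers coloured by pedigree (HMY red, LCM blue) and bars are means of 6 heifers, which were 175 CPM in LPLE and 274 in HPLE heifers at 12 months and between 387 and 594 in the other 6 groups.

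By mean log2 CPM the order of the 8 groups was HPLE in gestation, LPHE at 12 months, HPHE at 12 months, LPHE in gestation, LPLE in gestation, HPHE in gestation, HPLE at 12 months and LPLE at 12 months. Neighbours in this order gave exact permutation p-values between 0.214 and 0.968 in 7 comparisons (n = 6 each), all of 0.917 or more after adjustment. They were paired by their observed order, which picks close means, so these p-values do not show that groups are alike. The first 5 group means were within a range of 8.92 to 9.04 log2 CPM, and LPLE at 12 months had a mean of 7.30. LEP varied more between heifers of 1 group than most genes did. Its pooled SD within diet and sampling time was 0.70 log2 units, beside a median of 0.31 over 13718 genes, and 89.9% of them had a smaller SD.

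The first question of the design is whether LEP differed between the dietary energy levels at the first sampling, after months on the diets. By then HE heifers were also heavier than LE heifers, had a higher body condition score and had entered puberty at a lower age. The part of body weight, body condition and puberty in the LEP difference was not tested. The study had expected leptin (OB) to differ by energy, from earlier work. It counted the gene among its calls between LPHE and LPLE heifers in these biopsies, and not between HPHE and HPLE heifers. The 12-month values here are therefore not independent of that result. LEP was 1.37 ± 0.25 (SE) log2 units higher in HE than in LE heifers, a 2.59-fold difference. The FDR was 3.32e-05 in the likelihood ratio test of edgeR and 0.00999 in its quasi-likelihood F test. In this contrast 7.2% of the 13339 genes tested passed the FDR of 0.05, with 4.69% of the genes tested called higher and 2.51% called lower in HE heifers. An HE heifer had the higher log2 CPM in 131 of the 144 pairs of an HE and an LE heifer, and a permutation test over 12 against 12 heifers gave p = 1.8e-04. The difference was 1.60 ± 0.36 log2 units between LPHE and LPLE heifers (3.04-fold, FDR = 0.00212, quasi-likelihood FDR = 0.0366), where 7.08% of genes passed the FDR of 0.1. All 36 pairs had the higher level in the LPHE heifer, and the exact permutation p was 0.00216, the smallest that 6 against 6 heifers can give (0.0144 adjusted over 20 comparisons). Between HPHE and HPLE heifers it was 1.14 ± 0.36 log2 units (2.21-fold), which did not pass the threshold (FDR = 0.301) in a contrast where only 0.12% of genes did. The exact permutation p was 0.0476 and 0.159 after adjustment, with the HPHE heifer higher in 29 of 36 pairs. The missed call depended on single heifers. The difference passed without HPLE heifer 21, which had the highest level of its group (1.43, FDR = 0.0463), and without HPHE heifer 15 (1.34, FDR = 0.0691). It stayed positive whichever heifer was left out, from 0.93 to 1.43 log2 units. The energy difference did not differ detectably between the protein levels (0.46 ± 0.50 log2 units, FDR = 1, in a test that 0.105% of genes passed).

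Dietary protein gave no difference in LEP that passed the threshold. At 12 months HPHE and LPHE heifers were 0.15 ± 0.35 log2 units apart (FDR = 1), a difference whose sign changed without heifer 11 or heifer 19. HPLE heifers were 0.61 ± 0.35 log2 units above LPLE heifers (FDR = 1), and 0.29 without HPLE heifer 21. In gestation the 2 differences were −0.41 ± 0.30 and 0.23 ± 0.30 log2 units, also with an FDR of 1, and the first was −0.20 without heifer 2. These contrasts had few called genes of any kind, with 0.0225% of genes in each at 12 months and 0.00746% and 0.0746% in gestation.

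The energy difference did not pass the threshold in gestation, when all heifers had been on the same feed. HE heifers had 451 ± 166.2 and LE heifers 543 ± 239 CPM (n = 12), and the log2 difference of HE against LE was −0.25 ± 0.21 (FDR = 0.606, quasi-likelihood FDR = 0.572, permutation p = 0.303). It ranged from −0.35 without heifer 13 to −0.13 without heifer 17. In the same samples 3.74% of 13403 genes passed the FDR of 0.05, so other genes still differed. LPHE and LPLE heifers were 0.06 ± 0.29 log2 units apart (FDR = 0.98), where 1.05% of genes were called, and HPHE and HPLE heifers −0.57 ± 0.30 (FDR = 0.766), where 0.948% were. The latter was −0.33 without heifer 17 and −0.36 without heifer 2.

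**Figure D2:**
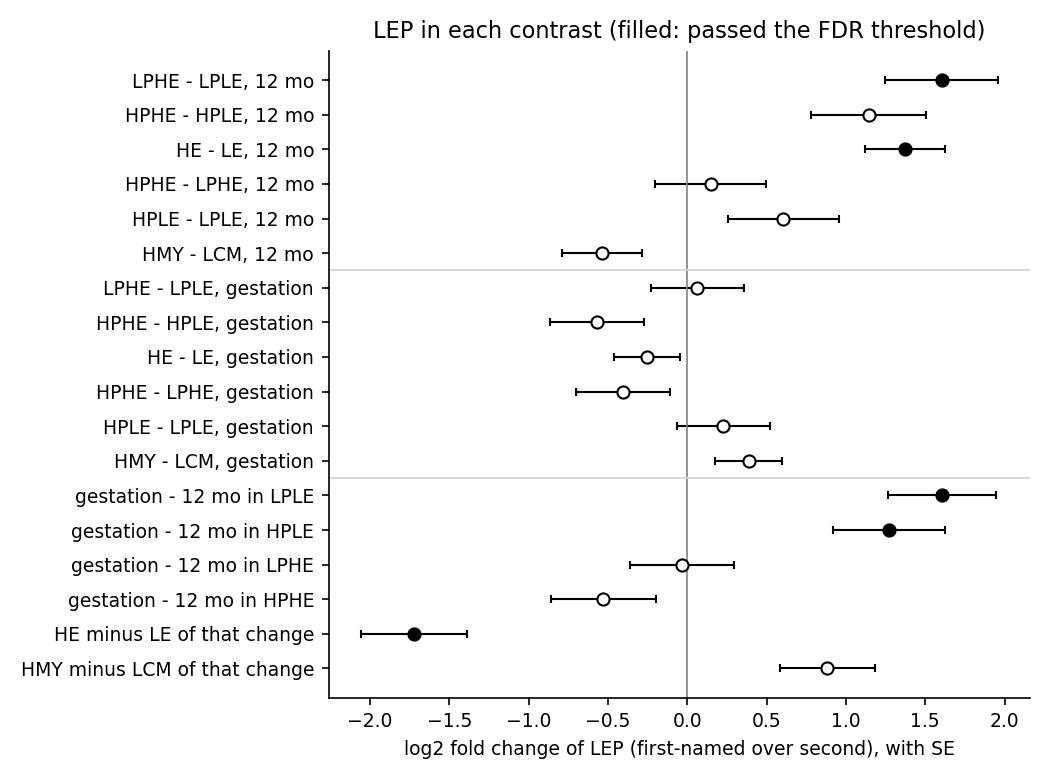
Log2 fold change of LEP with its SE (x axis) in the contrasts of diet and pedigree at each sampling time, and in the contrasts of gestation against 12 months within heifers (y axis). Filled points passed the FDR threshold (0.05 for HE - LE, 0.1 otherwise), as LPHE - LPLE at 12 months with 1.60 and HE minus LE of the change with −1.72 did, and no diet contrast in gestation did.

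Pairing the samples by heifer showed a rise of LEP in both LE diets, while neither HE diet gave a change that passed the threshold. From 12 months to gestation it was higher in 11 of 12 LE heifers, all 6 in LPLE and 5 of 6 in HPLE, and it at least doubled in 7 of them. Of the 12 HE heifers 6 were higher and 6 lower in gestation, and none doubled. In LPLE heifers the rise was 1.61 ± 0.34 log2 units (FDR = 6.01e-04, quasi-likelihood FDR = 0.0375), a 3.05-fold difference. The within-heifer changes ran from 0.63 to 3.03 log2 units, and the exact sign-flip permutation p of 0.0312 was the smallest that 6 pairs can give (0.146 adjusted over 20 comparisons). In HPLE heifers the change was 1.27 ± 0.35 (2.41-fold, FDR = 0.014, quasi-likelihood FDR = 0.0799), and the exact sign-flip permutation p was 0.0625 (0.179 adjusted). That call was lost without heifer 1 (1.06, FDR = 0.103), without heifer 9 (0.93, FDR = 0.15) and without heifer 17 (1.08, FDR = 0.111), the 3 HMY heifers of the group. LPHE heifers changed by −0.04 ± 0.33 (FDR = 0.948) and HPHE heifers by −0.53 ± 0.33 log2 units (FDR = 0.213), or −0.30 without heifer 2. All these changes start from the 12-month values, so they are not independent of the energy difference at 12 months.

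These changes are set against very different backgrounds. Between the sampling times 3.59% of 13718 genes were called in LPLE and 5.37% in HPLE heifers, whereas 37.4% were in LPHE and 40.4% in HPHE heifers, so LEP changed in the diets in which few genes did. Averaged over diets LEP rose by 0.58 ± 0.17 log2 units (FDR = 0.00221), which says little about LEP because 50.4% of all genes were called. The difference of the change between HE and LE heifers was itself tested and was −1.72 ± 0.34 log2 units (FDR = 1.25e-05, quasi-likelihood FDR = 0.00199). It contains the HE against LE difference at 12 months, which was 1.37 log2 units beside −0.25 in gestation. It is therefore not a finding apart from the 12-month result. The test of this difference was passed by 28.9% of the genes tested, and 14.9% passed it with a negative sign as LEP did. A permutation test of the within-heifer changes over 12 against 12 heifers gave p = 2e-04, or 0.002 adjusted over 20 comparisons. The same difference between HP and LP heifers was −0.41 ± 0.34 (FDR = 1), where 0.0219% of genes were called.

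**Figure D3:**
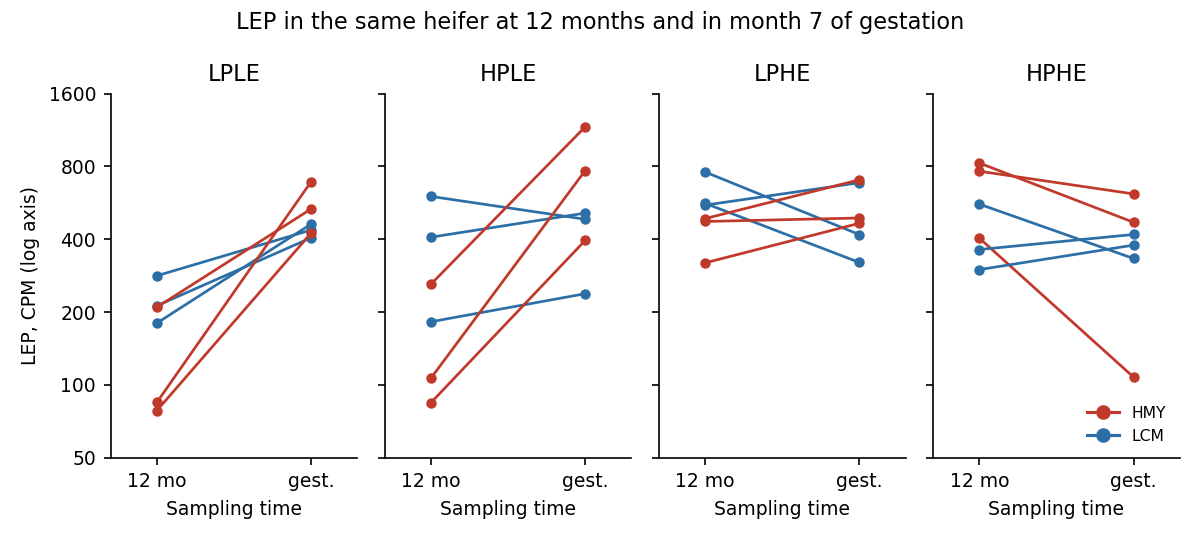
LEP in CPM (log axis) of the same heifer at 12 months and in month 7 of gestation, with 1 line per heifer, 1 panel per rearing diet and colour for pedigree (HMY red, LCM blue). Lines rise in all 6 LPLE and in 5 of 6 HPLE heifers, and in 6 of 12 HE heifers.

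No relation was detected between a heifer's level at 12 months and its level in gestation. Over 24 heifers Pearson's r of log2 CPM between the samplings was −0.091 (permutation p = 0.675) and Spearman's rho −0.0052 (p = 0.981). Centred on the diet means r was 0.091 over the 24 heifers (permutation p = 0.673). Without the 2 heifers farthest from the median at 12 months these were −0.161 and 0.0656. Within HE heifers r was 0.265 and within LE heifers 0.0155 (n = 12 each), and the 4 relations had an adjusted p of 0.899 or more.

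Pedigree gave no difference in LEP that passed the threshold at either sampling. The difference of HMY against LCM heifers was −0.54 ± 0.25 log2 units at 12 months (FDR = 0.495, with 0.03% of genes called), and 0.39 ± 0.21 in gestation (FDR = 0.795, with 0.179%). The within-heifer change was 0.88 ± 0.30 log2 units larger in HMY heifers (FDR = 0.494, with 0.0364%), and it passed the threshold without heifer 2 (1.06, FDR = 0.0936).

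The LE heifers were also compared by pedigree, a split that was chosen after the values were seen, and the pedigrees overlapped at both samplings. At 12 months the 6 LE heifers of HMY had 78.4 to 261 CPM with a median of 95.8, and the 6 of LCM 180 to 601 with a median of 248. In gestation HMY heifers had 396 to 1166 CPM and LCM heifers 238 to 513, so the order of the medians, 612 and 449, was the other way round. Among the HPLE heifers of HMY, heifer 1 went from 84.6 to 396, heifer 9 from 107 to 769 and heifer 17 from 261 to 1166 CPM. The corresponding LPLE heifers went from 210 to 533 (heifer 4), from 84.8 to 691 (heifer 10) and from 78.4 to 424 CPM (heifer 18). All 6 at least doubled, as 1 of the 6 LCM heifers did. The change was 1.79 ± 0.35 log2 units larger in HMY than in LCM heifers on LE diets (FDR = 0.00136, quasi-likelihood FDR = 0.0505), in a contrast passed by 1.76% of genes, and the exact permutation p was 0.00433 (0.026 adjusted over 6 comparisons). On HE diets it was −0.05 ± 0.35 (FDR = 1, with 0.0146% of genes called). The difference between the 2 values, −1.84 ± 0.49 log2 units, passed the FDR of 0.1 in the likelihood ratio test (0.0804, with 0.313% of genes) and not in the quasi-likelihood F test (0.316). It was lost in 15 of the 24 fits that each left out 1 heifer, with an FDR of up to 0.231, and kept in 9. In the single samplings the difference of HMY against LCM on LE diets was −1.12 ± 0.32 at 12 months (FDR = 0.115, with 0.367% of genes called; it passed in 7 of the 24 fits without 1 heifer) and 0.62 ± 0.30 in gestation (FDR = 0.999, with 0.0671%). On HE diets it was 0.07 ± 0.32 at 12 months (FDR = 0.986, with 0.06%) and 0.15 ± 0.29 in gestation (FDR = 1, with 0.0895%). The difference between the energy levels did not pass in either sampling, with 1.19 ± 0.46 (FDR = 0.499, with 0.105%) and −0.48 ± 0.42 (FDR = 1, with 0.0224%).

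Genes of fat synthesis gave a different course from LEP. The list of adipocyte expansion held 12 symbols, of which 6 could be matched to an identifier, and all of these belong to lipogenesis. ACACA and FASN make fatty acids, ELOVL6 and SCD lengthen and desaturate them, DGAT2 joins them into triglyceride and THRSP is a regulator of lipogenesis. Their identifiers came from the study's tables, most of whose genes it had selected in the same biopsies, so their direction at 12 months is not independent evidence. The study had expected FASN, SCD, ELOVL6 and ACACA, like leptin, to differ by energy from earlier work. At 12 months 5 of the 6 were higher in HE heifers, as 4.69% of the genes tested were. The median log2 difference of the 6 was 1.05 beside −0.03 over all genes. The lowest p-values were those of ELOVL6 (1.28 ± 0.22, FDR = 2.67e-06), ACACA (1.06 ± 0.19, FDR = 2.29e-05) and SCD (1.08 ± 0.22, FDR = 2.45e-04). In gestation all 6 were lower in HE heifers, where 2.66% of genes were, with a median of −1.28 and with FASN at −1.64 ± 0.29 (FDR = 6.92e-06).

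The fall of these genes in HE heifers was larger in log2 units than the change of LEP there. The change from 12 months to gestation differed between HE and LE heifers in all 6, by a median of −2.27 log2 units beside 0.05 over all genes. All 6 passed with a negative sign, as 14.9% of the genes tested did. These changes, and those within each diet, start from the 12-month values behind the choice of the genes. They are therefore not independent of that choice. In the LPHE group SCD fell by 2.55 ± 0.42 (FDR = 4.04e-08), ELOVL6 by 2.36 ± 0.35 and ACACA by 1.93 ± 0.34, whereas LEP changed by −0.04 ± 0.33. In LPLE heifers, in which LEP rose by 1.61, SCD changed by 0.02 ± 0.37 (FDR = 0.996), ELOVL6 by 0.08 ± 0.34 and FASN by −0.12 ± 0.32. In HPLE heifers, in which LEP rose by 1.27, FASN fell by 1.05 ± 0.33 (FDR = 0.0405), in a contrast that 5.37% of genes passed. The other 5 genes did not pass, with ELOVL6 at −0.82 ± 0.34 (FDR = 0.193) and SCD at −0.64 ± 0.39 (FDR = 0.475). The summed CPM of the 6 genes went from 42393 ± 8306 to 8264 ± 5877 in HE heifers and from 24328 ± 9445 to 19723 ± 8976 in LE heifers (n = 12), with 27502 and 17205 in HPLE and 21153 and 22242 in LPLE heifers. CIDEC was 0.54 ± 0.16 higher in HE heifers at 12 months (FDR = 0.0203) and −0.15 ± 0.14 apart in gestation (FDR = 0.651), and it changed by 0.26 ± 0.19 in LPLE and −0.79 ± 0.19 in HPHE heifers. Its identifier also came from the study's tables, most of whose genes were selected in these biopsies. Its values are therefore a description.

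Of the 10 fibroblast and preadipocyte markers listed, 5 had an identifier, and 4 of these passed as lower in HE heifers at 12 months, as 2.51% of all genes tested did. The identifiers came from the study's lists of genes that differed by energy level in the same biopsies, so the counts of fibroblast and muscle markers at 12 months follow largely from that choice and nothing is read from them. The lower ones were the collagen genes COL1A2 (−0.83 ± 0.20, FDR = 0.00286), COL1A1 (−0.88 ± 0.22, FDR = 0.00366) and COL3A1 (−0.60 ± 0.17) and the matrix proteoglycan DCN (−0.57 ± 0.16). The summed CPM of all 5 markers with an identifier was 35476 ± 11947 in HE and 58605 ± 23780 in LE heifers at 12 months, with an overlap of 30351 to 57894. In LPLE heifers alone it ranged from 36986 to 98943 at 12 months and from 33440 to 46206 in gestation. In gestation 1 of the 5 was higher in HE heifers, as 1.08% of the genes tested were. It was PI16, a marker of fibroblast progenitors (0.80 ± 0.22, FDR = 0.0136). The difference of the change between HE and LE heifers was positive and passed the FDR of 0.1 in all 5, as it did in 14% of the genes tested, and their median was 0.94 beside 0.05 over all genes. It passed in 4 of the 5 without heifer 15. This difference contains the 12-month values that the choice favoured. The median HE against LE difference was −0.64 at 12 months and 0.20 in gestation. Nothing is therefore read from this count either. Skeletal muscle markers had 7 of 10 identifiers and 4 lower in HE heifers at 12 months, with TNNI2 at −1.76 ± 0.54 (FDR = 0.0222). The count of muscle markers was 0 in the quasi-likelihood F test and 6 without heifer 15. The part of connective tissue, muscle or adipocyte number in the LEP differences was not tested. Without HPHE heifer 15, the biopsy richest in muscle transcripts, LEP was 1.47 ± 0.25 log2 units higher in HE heifers (FDR = 1.81e-06), in a comparison whose HE group then also held fewer muscle transcripts.

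**Figure D4:**
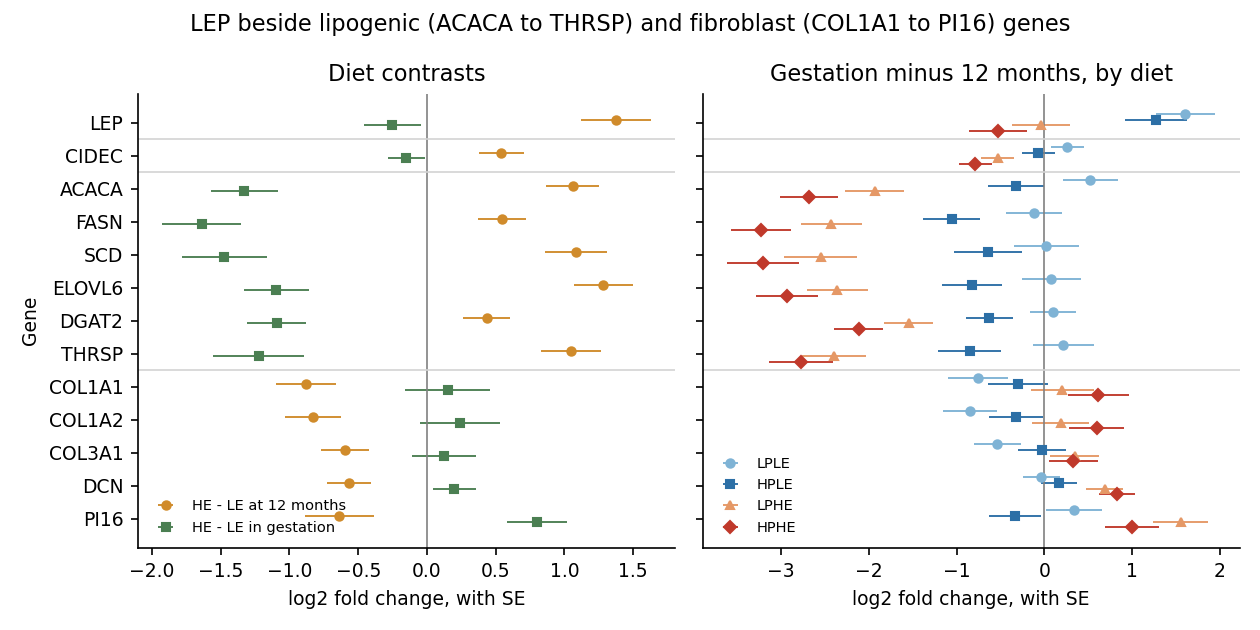
Log2 fold change with SE (x axis) of LEP, CIDEC, 6 lipogenic and 5 fibroblast genes (y axis), for HE - LE at each sampling time (left) and for gestation against 12 months within heifers of each diet (right). LEP lies at 1.61 and 1.27 in LPLE and HPLE heifers and near 0 in LPHE heifers, while SCD lies at 0.02 in LPLE and −2.55 in LPHE heifers.

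Few members of the leptin signalling list could be measured by name. Of 17 symbols only PTPN11 and IRS1 had an identifier, and they and HK2 had one through the study's list of genes that differed between LPHE and LPLE heifers, so their values at 12 months are a description. PTPN11, a phosphatase that binds the activated leptin receptor, had a difference of HE against LE heifers of 0.51 ± 0.15 log2 units at 12 months and −0.05 ± 0.17 apart in gestation (FDR = 0.93). IRS1, which passes on the signal of the insulin receptor, was −0.33 ± 0.13 apart at 12 months. Averaged over diets it rose by 0.47 ± 0.07 between the samplings (FDR = 4.25e-09), in a contrast where 50.4% of all genes were called. Of 12 genes of insulin signalling and glucose uptake IRS1 and the hexokinase HK2 had an identifier. HK2 had a difference of 0.92 ± 0.28 at 12 months. In gestation it was lower in HE heifers, with −0.75 ± 0.22 (FDR = 0.027), as 2.66% of the genes tested were.

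The genes whose levels were most like LEP over the 48 samples were named by Pearson's r of log2 CPM, as a description in which samples of 1 heifer and of 1 group are not independent. The highest value was 0.839, of SEC22B, a protein of vesicle transport between the endoplasmic reticulum and the Golgi. ENSBTAG00000017279 (0.826), ENSBTAG00000011461 (0.822), SLITRK4 (0.819), BAIAP2L1 (0.808), UNC79 (0.800), ARHGEF37 (0.795), ADTRP (0.791), CDKN2B (0.781) and PPM1L (0.78) followed. CDKN2B is an inhibitor of the cell cycle kinases CDK4 and CDK6. After the mean of each diet and sampling time was subtracted, ENSBTAG00000023607 had the highest r (0.851), and SEC22B was next with 0.816. The lowest values over the 48 samples were −0.717 (ENSBTAG00000009042), −0.690 (ENSBTAG00000010691) and 3 between −0.668 and −0.665. For comparison, r was 0.51 for CIDEC, 0.237 for SCD, 0.0745 for FASN and −0.589 for COL1A1.

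The amplitude of these genes is given as a description, without a test, since they were picked for following LEP in the same samples. In LPLE heifers at 12 months BAIAP2L1 had 2.0 to 5.32 CPM, and in LPHE heifers 5.88 to 27.4, without overlap. SEC22B had 43.3 to 76.5 and 62.1 to 125 CPM in the same groups, which overlapped. The log2 difference of HE against LE heifers at 12 months was 1.59 ± 0.24 for BAIAP2L1 and 0.46 ± 0.13 for SEC22B, and in gestation the differences were −0.02 ± 0.23 and −0.02 ± 0.13. From 12 months to gestation the log2 change of CDKN2B was 2.19 ± 0.27 in LPLE, 1.52 ± 0.27 in HPLE and 0.05 ± 0.26 in LPHE heifers.

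**Figure D5:**
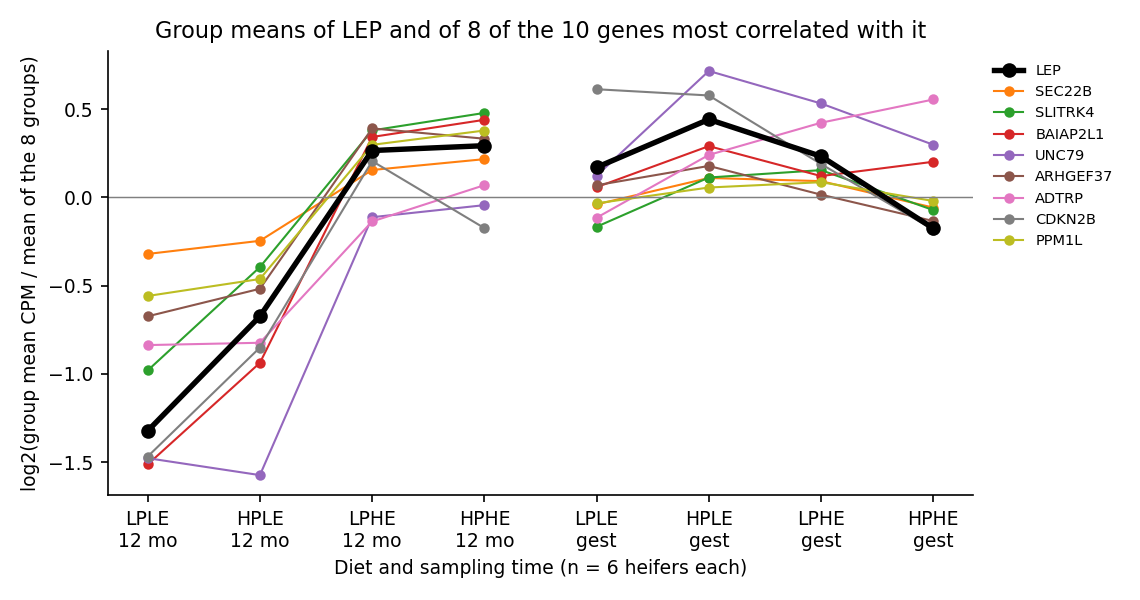
Group means of CPM relative to the mean of the 8 groups (y axis, log2) for LEP (black) and for the 8 genes with a symbol among the 10 most correlated with it, by diet and sampling time (x axis, n = 6 heifers each). All 9 genes had their lowest or second lowest mean in LPLE heifers at 12 months, and LEP ran from 175 CPM there to 594 CPM in HPLE heifers in gestation.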

How the data were processed

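RNA-seq was carried out on 48 subcutaneous adipose biopsies, 2 from each of 24 heifers. The authors trimmed the paired-end reads with Cutadapt 1.3, aligned them to the bovine genome UMD3.1 with Tophat 2.0.12 and deposited raw read counts per Ensembl gene, made with HTSeq-count. The annotation release and the strand setting are not given in the sources used here, and the library kit does not mark strand, so reads of an overlapping gene on the other strand cannot be told apart. Each table ended with 5 rows that name no gene, which held 38.8% to 61.0% of the reads and were left out. The sequencing lane is not in the labels.

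Groups were taken from the sample labels. Counts were analysed in edgeR 4.0.16 (R 4.3.3) with TMM normalization, common, trended and tagwise dispersions, glmFit and the likelihood ratio test, as the study's methods describe. A gene was kept if 3 or more samples of the fit had a CPM of 2 or higher. The model for 1 sampling time held diet and pedigree (24 samples), and the model for the change held heifer as a block and sampling time by diet (48 samples). P-values were adjusted over all genes tested (Benjamini-Hochberg FDR, threshold 0.1, and 0.05 for HE against LE). The SE of a log2 fold change was its size divided by the square root of the likelihood ratio. The heifer block rests on the same animals having been sampled at both times. The correlation of a heifer's 2 deviations from the group means had a median of 0.309 and was above 0.1 in 20 of 24 heifers. Its lowest value was −0.058. In 17 of the 24 heifers the own second biopsy was the best match within the diet. No 2 libraries of a group agreed within sampling noise in 120 pairs. LEP alone was also compared by two-sided permutation tests of log2 CPM with a prior count of 2, exact for 6 against 6 heifers and for 6 pairs, and with 1e+05 resamples otherwise. The fits were also run on simulated data in which all genes shared the same dispersion, unlike these data. Nothing about LEP is read from those runs.

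Gene symbols were taken from identifier and symbol pairs in the study's tables (1006 genes), most of which it had selected in these biopsies, so 7 of the 13 gene lists had no identifier at all: other adipokines, regulators of leptin transcription, adrenergic receptors and lipolysis, and markers of immune, endothelial, blood and epithelial cells. Genes named for likeness to LEP were the 10 highest and 5 lowest in Pearson's r over 48 samples and the highest within groups. LEP and the lists were chosen with earlier results of these data known. Alternatives were the quasi-likelihood F test, DESeq2 1.42.0, library size alone, RLE size factors, 2 other filters on low counts, a model without pedigree, all 48 samples in the diet fits, no heifer block, other thresholds, another pseudocount (0.5) and leaving out each heifer. Another dispersion estimator, the pedigree contrasts within energy levels, their alternatives, the correlations within energy levels and the list counts without heifer 15 were added after seeing the data. Permutation p-values were computed with scipy 1.17.1.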

Additional observations from a re-analysis of the deposited data

Results flagged for a closer look

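HPHE heifer 2 in gestation had a LEP level of 6.75 log2 CPM, apart from the other 5 heifers of its group by more than Dixon's 95% limit (gap over range 0.647). Chance gives such a value in about 1 of 20 groups. The same biopsy had 876 CPM of CIDEC, a lipogenic sum of 3353 CPM, the lowest of the 48, and a fibroblast sum of 79499 CPM, and their part in its LEP level was not tested.

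The change of LEP from 12 months to gestation differed between HE and LE heifers by −1.72 log2 units in a test of the difference itself. This value contains the energy difference at 12 months and is not independent of it. The difference of the change between pedigrees was −1.84 log2 units apart between HE and LE heifers, in a comparison chosen after the values were seen. Its FDR was 0.0804 in the likelihood ratio test of edgeR and 0.316 in the quasi-likelihood F test, and the call was lost in 15 of 24 fits without 1 heifer.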

How the results depend on the processing

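HE against LE at 12 months (1.26 to 1.51 log2 units with 1 heifer left out), LPHE against LPLE at 12 months (1.46 to 1.77), the change in LPLE heifers (1.35 to 1.81) and its difference between HE and LE heifers (−1.89 to −1.58) kept their direction and call under every alternative run. Leaving out 1 heifer gave 0.93 to 1.43 for HPHE against HPLE at 12 months, 0.93 to 1.60 for the change in HPLE heifers, 0.76 to 1.06 for the change of HMY minus LCM, −0.077 to 0.33 for HPHE against LPHE and 0.29 to 0.78 for HPLE against LPLE at 12 months, −0.35 to −0.13 for HE against LE, −0.74 to −0.33 for HPHE against HPLE and −0.54 to −0.20 for HPHE against LPHE in gestation, −0.71 to −0.30 for the change in HPHE heifers, 0.17 to 0.68 at 12 months and 0.39 to 0.79 in gestation for energy by protein, −0.11 to 0.15 for LPHE against LPLE and −0.020 to 0.38 for HPLE against LPLE, both in gestation, and −0.15 to 0.13 for the change in LPHE heifers, which was also 0.13 with library size alone. For the comparisons within energy levels the ranges were −2.07 to −1.57 for the energy by pedigree difference of the change, −0.24 to 0.23 for the change of HMY minus LCM in HE heifers, −1.43 to −0.90 for HMY against LCM in LE and −0.090 to 0.22 in HE heifers at 12 months, and −0.049 to 0.35 in HE heifers in gestation. The energy by pedigree difference lost its call with the quasi-likelihood F test (−1.84), library size alone (−1.79), no filter (−1.83), other dispersions (−1.84) and an FDR of 0.05 (−1.84). With the quasi-likelihood F test the muscle marker counts became 0 for HE against LE at 12 months, 1 for the mean change and 1 for its HE minus LE difference, and the fibroblast count in gestation 0. DESeq2 gave a muscle count of 1 in gestation. The causes were not tested. Without the heifer block no call on LEP changed (1.51 in LPLE, 1.14 in HPLE and −1.57 for HE minus LE), but called genes went from 493 to 82 in LPLE and from 736 to 360 in HPLE heifers. Called genes for LPHE against LPLE at 12 months were 944, and 1615 with DESeq2 and 1525 with all samples fitted. For HE against LE they were 960, 1598 and 1475 at 12 months. In gestation they were 501, and 1151 with DESeq2, 801 with other dispersions and 326 with all samples. For the change in LPLE heifers DESeq2 called 807 and the quasi-likelihood F test 320. With at least 1566 reads on LEP, the number of heifers and not depth limited precision.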
